A study of Mus musculus with 34 samples.

Results

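This section describes how H3K9me3, histone H3 trimethylated at lysine 9, differed between 2 mouse embryonic stem cell lines that carry the same C57BL/6J stretch of chromosome 13 on different genetic backgrounds. The first line, D2-13B6 (strain D2.B6-(rs29224292-rs13469455)/Bakr, line XE 2-4), is a congenic line with a DBA/2J background into which the C57BL/6J segment was bred. The second, B6 (C57BL/6J, line B6 5-1), carries C57BL/6J chromosomes throughout. Each line gave 3 H3K9me3 libraries that the labels call technical replicates, so 6 of the 34 samples of the series enter the comparison, and 86874 of the 248336 listed regions had enough reads to be tested. Chromosomes 11, 13, X and Y were counted apart from the other autosomes, because the segment lies on chromosome 13 and both marks stood apart on chromosome 11. The cells grew in serum with LIF and inhibitors of MEK and GSK3, no agent distinguished the lines, and age does not apply to cell lines. The other H3K9me3 libraries made alongside entered the same fit, and so the choice of tested regions, the scaling and the spread behind the p-values. Otherwise they were used for values beside the comparison. They comprise 2 of D2 (DBA/2J, line D2 5-5) and 2 of B6-13D2 (B6.D2-(rs30079041-rs51756099)/Bakr, line QJ 6-1), the reciprocal congenic with a DBA/2J segment on a C57BL/6J background. Since each genotype is 1 line, a difference between lines cannot be told apart from one between genotypes, and p-values measure only the spread between libraries of these lines.

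H3K9me3 marks heterochromatin. In embryonic stem cells it is laid down largely by SETDB1, which KRAB zinc finger proteins recruit through the corepressor TRIM28 to endogenous retroviruses and to the methylated copy of imprinting control regions. Many KRAB zinc finger genes lie in fast-changing clusters that differ between mouse strains, and H3K9me3 also covers such clusters.

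The 6 libraries held 1904669 to 2012189 counts in B6 and 1538145 to 2185977 in D2-13B6. B6 replicates differed from each other by little more than sampling noise, with a chi-square per degree of freedom of 1.05 to 1.09. D2-13B6 replicate 1 stood apart from replicates 2 and 3 (2.46 and 2.47), which differed less from each other (1.21). H3K27ac at the starts of 8 embryonic stem cell markers was high in both lines; at Pou5f1 it was 182 and 201 CPM (CPM being counts scaled to the size of the library) in B6 and 250 and 268 in D2-13B6. Of 6 fibroblast markers, Col3a1 and Lum had no listed region at their start and no other exceeded 13.4 CPM in any library of the 4 lines; 4 endoderm markers reached at most 8.03 CPM.

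The 3 regions on the autosomes other than 11 and 13 with the smallest p in each direction, 1 per megabase, show what the strongest differences look like in sequence. The central 300 bases of each (the whole region at 256 bases) are given from GRCm38, plus strand, with repeats that RefSeq soft-masks in capitals. The first 3, near Ccr1, in Gm10222 and near Hrh1, had more H3K9me3 in D2-13B6.
chr9:123932861-123933160: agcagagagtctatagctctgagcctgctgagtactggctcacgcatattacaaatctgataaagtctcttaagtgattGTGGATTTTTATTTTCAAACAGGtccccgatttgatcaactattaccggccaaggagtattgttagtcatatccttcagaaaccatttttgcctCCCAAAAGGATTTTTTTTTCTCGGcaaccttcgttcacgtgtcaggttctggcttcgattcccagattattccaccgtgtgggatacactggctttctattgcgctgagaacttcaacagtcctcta
chr1:24613705-24614004: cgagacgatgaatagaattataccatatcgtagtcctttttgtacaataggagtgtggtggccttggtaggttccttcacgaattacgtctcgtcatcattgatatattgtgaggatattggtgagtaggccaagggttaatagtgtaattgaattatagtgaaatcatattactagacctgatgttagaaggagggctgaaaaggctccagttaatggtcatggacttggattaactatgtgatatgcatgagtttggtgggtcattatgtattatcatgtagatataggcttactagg
chr6:114497598-114497853: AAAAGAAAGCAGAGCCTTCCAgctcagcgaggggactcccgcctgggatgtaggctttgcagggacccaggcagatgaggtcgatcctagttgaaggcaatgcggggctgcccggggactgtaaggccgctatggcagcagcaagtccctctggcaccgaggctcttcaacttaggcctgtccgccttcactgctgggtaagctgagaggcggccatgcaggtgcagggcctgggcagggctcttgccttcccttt
The other 3, on chromosome 10 far from any coding gene, in Gm12892 and near Tmem125, had less.
chr10:3113624-3113923: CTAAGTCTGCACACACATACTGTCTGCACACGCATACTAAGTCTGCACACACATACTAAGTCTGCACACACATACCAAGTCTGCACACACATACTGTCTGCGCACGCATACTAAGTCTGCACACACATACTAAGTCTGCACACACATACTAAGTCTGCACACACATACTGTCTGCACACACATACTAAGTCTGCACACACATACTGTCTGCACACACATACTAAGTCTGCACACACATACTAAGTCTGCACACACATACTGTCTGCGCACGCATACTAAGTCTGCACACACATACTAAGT
chr4:122008536-122008835: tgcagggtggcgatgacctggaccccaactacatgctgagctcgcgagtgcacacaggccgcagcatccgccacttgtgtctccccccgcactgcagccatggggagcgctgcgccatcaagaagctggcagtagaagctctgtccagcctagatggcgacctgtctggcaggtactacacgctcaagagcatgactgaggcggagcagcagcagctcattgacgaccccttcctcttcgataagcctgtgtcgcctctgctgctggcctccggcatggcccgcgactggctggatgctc
chr4:118547902-118548201: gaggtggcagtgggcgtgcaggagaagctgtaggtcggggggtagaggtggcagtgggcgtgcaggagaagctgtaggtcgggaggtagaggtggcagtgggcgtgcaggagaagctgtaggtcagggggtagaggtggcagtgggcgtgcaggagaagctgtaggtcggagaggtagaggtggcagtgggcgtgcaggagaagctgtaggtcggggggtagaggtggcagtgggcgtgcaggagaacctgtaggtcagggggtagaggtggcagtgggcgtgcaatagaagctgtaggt
The chromosome 10 stretch is masked along all 300 bases and repeats itself, with 83.7% identity when shifted by 55 bases. The stretch near Tmem125 is not masked, yet repeats at a shift of 44 bases with 82.4% identity. In the stretch from Gm10222 no base is masked, and 80% of the 75-base words sampled from the region also occur in the mitochondrial genome. The remaining 3 reach at most 35.3% identity at the shifts examined. Very short and long shifts were not examined. These are descriptions of the reference, which is C57BL/6J; DBA/2J sequence was not used here.

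H3K9me3 differed between the lines at 18190 of 86874 regions (20.9%), with 7603 higher in D2-13B6 (8.75%) and 10587 lower (12.2%), at an adjusted p under 0.05 in edgeR's quasi-likelihood test. DESeq2 called 6540, with 1610 higher and 3857 lower on the autosomes other than 11 and 13, and a filter at a mean of 20 counts left 4452 calls of 11849 regions, with 1820 and 1867. On the autosomes other than 11 and 13, 14763 of 74505 regions were called (19.8%). Of these, 5471 were higher in D2-13B6 (7.34%) and 9292 lower (12.5%), and the median log2 fold change over all of them was -0.0015. The excess of lower calls depends on scaling and on the filter. With TMM factors, the filter at a mean of 20 counts gave a lower share of calls of 50.6%, and no filter 72.9%. With library totals in place of TMM factors, 7546 regions were higher and 7463 lower, so the lower share of calls went from 62.9% to 49.7% while the median over all regions moved from 0.02 to 0.14. Most calls were of moderate size: 4697 of the higher and 7002 of the lower regions passed a log2 change of 1, and 173 and 273 passed 3. Calls were spread widely, since 2094 of 2177 megabase windows on these autosomes held at least 1, and the 20 windows with most calls held 8.51% of them. Among the higher regions 59.3% had no other higher region within 10 kb, and among the lower 61.2% had no other lower one. Leaving out B6 replicate 1 lowered the total to 12043. The higher count on these autosomes fell to between 3493 and 3867 without any single B6 library or without D2-13B6 replicate 2 or 3. Without D2-13B6 replicate 1, the library that stood apart, 7413 were higher and 9912 lower, among them 4734 of the 5471 and 8392 of the 9292. Fewer of these calls remained without D2-13B6 replicate 2 (3268 and 6182) or replicate 3 (3203 and 6074).

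Chromosome 11 carried more H3K9me3 in D2-13B6 almost along its length. It took 7.86% to 8.38% of the counts in the D2-13B6 libraries and 5.62% to 5.80% in the B6 libraries, with no overlap, against 5.90% to 6.18% in D2 and 5.46% to 5.57% in B6-13D2. Of 6703 regions 2279 were called (34%), with 1990 higher (29.7%) and 289 lower (4.31%), and the median log2 fold change was 0.69. Far fewer were called with DESeq2 or without some single libraries, as given in the last section. The H3K27ac libraries of the same lines also held more of their counts on chromosome 11, 9.15% to 9.47% in D2-13B6 and 7.57% to 7.61% in B6; the part of whatever both marks share there in the H3K9me3 result was not tested. In 5-megabase windows the median was highest at 115 to 120 Mb (1.05, 245 of 526 regions higher) and negative at 10 to 15 Mb (-0.09) and at 25 to 30 Mb (-0.55, with 50 lower and 4 higher of 147). Summed H3K9me3 at 25 to 30 Mb was 1910 to 2030 CPM in B6, 1270 to 1350 in D2-13B6, 1080 to 1130 in D2 and 1930 to 1980 in B6-13D2.

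Among single regions of chromosome 11, an exon of Cenpv, a centromere-associated protein gene, at chr11:62523100-62525532 had 5.81, 5.33 and 5.16 CPM in B6 and 90.8, 73.2 and 64.6 in D2-13B6 (log2 3.78, SE 0.27, adjusted p = 7.41e-26). The rule for naming regions required that the lines' libraries did not overlap. D2 had 66.2 and 55.8 CPM. A Pitpnc1 intron (chr11:107296303-107300164) had 7.99, 16 and 10.3 CPM against 112, 76.9 and 73.0, a log2 difference of 2.92 (SE 0.23). At the start of Ctc1, a subunit of a telomere maintenance complex, the values were 10.9, 3.04 and 6.63 against 67.5, 44.8 and 48.5 CPM (log2 2.92, SE 0.27). The 3 lower regions named on this chromosome ranged from a log2 change of -1.45 to -2.72; at 2 of them H3K27ac was higher, as at chr11:31980842-31984803, 1.19 kb from 4930524B15Rik, where H3K9me3 went from 97.3 to 108 CPM in B6 to 34.2 to 41.1 in D2-13B6 and H3K27ac from 82.6 and 101 to 223 and 249.

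Chromosome 13, which carries the C57BL/6J segment in both lines, had less H3K9me3 in D2-13B6. It took 3.65% to 3.99% of D2-13B6 counts and 4.58% to 4.69% of B6 counts, while D2 and B6-13D2, with the DBA/2J segment, had 5.95% to 7.45%. Of 4164 regions 868 were called (20.8%), 106 higher (2.55%) and 762 lower (18.3%), with a median of -0.33. H3K27ac counts on this chromosome were also a little lower, 4.05% to 4.08% against 4.39% to 4.41%. At 65 to 67 Mb, in a zinc finger gene cluster, the level went with the labelled segment: summed H3K9me3 was 3370 to 3910 CPM in B6 and 2260 to 2540 in D2-13B6 but 22600 and 28300 in D2 and 36000 and 43500 in B6-13D2. At those 316 regions 69 were lower in D2-13B6 than in B6 and 0 were higher, with a median of -0.51 and the 3 D2-13B6 libraries all below the 3 of B6. Next to it, at 68 to 69 Mb, the order differed: 334 to 398 CPM in B6, 881 to 1160 in D2-13B6, 1250 to 1480 in D2 and 1680 to 2220 in B6-13D2, so that D2-13B6 lay above B6 and below the lines with the DBA/2J segment. Of the 44 regions that lie wholly within that megabase, 33 were higher in D2-13B6 and 0 lower, with a median of 1.67. The labels of D2-13B6 and the text of the series name different end markers for its segment (rs13469455 and rs51756099), and marker positions were not used here, so whether 68 to 69 Mb is inside the C57BL/6J segment of D2-13B6 was not tested.

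The chromosome 13 regions with the smallest p included an intron of Tmem267 at chr13:119601161-119603466, with 383, 346 and 340 CPM in B6 and 58.5, 67.2 and 56.9 in D2-13B6 (log2 -2.55, SE 0.13). H3K27ac there was also lower, 14.6 and 18.6 CPM against 132 and 144. At chr13:99123448-99126418, 58.4 kb from Zfp366, H3K9me3 was 61.7, 65.4 and 56.7 CPM in B6 and 8.99, 10.5 and 11.2 in D2-13B6 (log2 -2.56, SE 0.24), while H3K27ac was higher, 49.4 and 60.4 against 10.9 and 12.9. Higher regions were an Arl15 intron (log2 1.84, SE 0.30) and a region 4.58 kb from Abt1 (log2 1.65, SE 0.31). On the X chromosome 252 of 1403 regions were called (18%), 25 higher (1.78%) and 227 lower (16.2%), with a median of -0.34, whereas H3K27ac on X had a median of 0.30. An intron of Mid1, a gene that spans the pseudoautosomal boundary, had 315, 301 and 304 CPM in B6 and 24.3, 17.2 and 13.3 in D2-13B6 (log2 -4.09, SE 0.17), but B6 and D2 lines of the separate series overlapped there. Sequence near this boundary is shared by X and Y and only 70% of its sampled words occurred once, so its counts are uncertain.

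**Figure D1:**
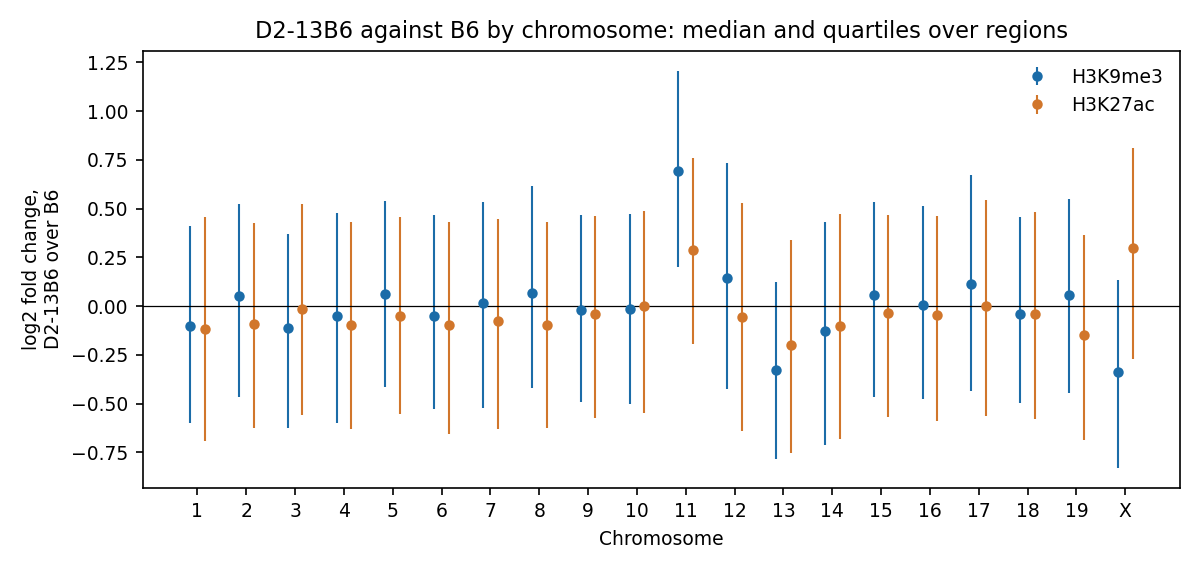
Median (point) and lower to upper quartile (bar) of the log2 fold change of D2-13B6 over B6 across regions of each chromosome, for H3K9me3 (blue) and H3K27ac (orange); chromosome Y is left out. H3K9me3 stands apart upward on chromosome 11 (median 0.69) and downward on 13 (-0.33) and X (-0.34); the other autosomes lie between -0.13 and 0.14.

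On the other autosomes, the higher region with the smallest p was chr9:123931516-123934505, intergenic and 27.6 kb from Ccr1, a chemokine receptor gene. It had 17.4, 15.2 and 16.9 CPM in B6 and 332, 285 and 270 in D2-13B6 (log2 4.15, SE 0.17, adjusted p = 5.08e-49). D2 had 245 and 237 CPM, below every D2-13B6 library but far above B6, B6-13D2 was at 8.21 and 8.13, and the 3 separate D2 lines (550 to 773 CPM) were far above the 3 separate B6 lines (10.6 to 21.5). Near Hrh1, the histamine H1 receptor gene, chr6:114497598-114497853 had 9.44, 16 and 20.6 CPM in B6 and 161, 152 and 112 in D2-13B6 (log2 3.20, SE 0.20). A region 52.4 kb from Ezh2, which encodes the histone H3 lysine 27 methyltransferase, had 19.6, 44.9 and 28.7 CPM against 178, 142 and 135 (chr6:47647744-47651697, log2 2.28, SE 0.18). In both, all D2-13B6 libraries lay above all B6 libraries, as the rule for naming regions required. In an exon of the noncoding gene E330020D12Rik (chr1:153413965-153415674) H3K9me3 was 3.04 to 7.37 CPM in B6 and 62.7 to 66.7 in D2-13B6 (log2 3.55, SE 0.27), while H3K27ac was 21.5 and 24.9 against 7.83 and 8.32. The mitochondrion-like region in Gm10222 (chr1:24611449-24616261) had 26.2, 18.3 and 19.9 CPM in B6 and 594, 140 and 211 in D2-13B6, with replicate 1 well above the others. Its log2 change of 3.85 (SE 0.21; 3.04 without D2-13B6 replicate 1) had the opposite sign in the separate lines (-1.57), and reads of mitochondrial DNA placed here could not be told apart from reads of the locus.

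The lower region with the smallest p, the repeat at chr10:3113482-3114066, had 216, 180 and 209 CPM in B6 and 1.80, 3.73 and 9.13 in D2-13B6 (log2 -5.27, SE 0.23, adjusted p = 3.99e-46). D2 had 7.16 and 10.1 CPM and B6-13D2 162 and 157, so the level went with the background. Gm12892 (chr4:122007826-122009545) had 88.6, 79.9 and 76.6 CPM in B6 and at most 0.702 in D2-13B6, where 2 of the 3 libraries had no read. Against a floor of 3 counts per library it was at least 34.8-fold lower. The repeat near Tmem125 (chr4:118546827-118549277) had 404, 415 and 405 CPM against 104, 102 and 98.3 (log2 -2.01, SE 0.12). A broad intronic region of the noncoding Gm49692 (chr12:20226634-20234437) had 684, 653 and 651 against 213, 201 and 197 CPM (log2 -1.70, SE 0.10). At a region 11.3 kb from Mtmr7 (chr8:40646063-40652247) the values were 142, 145 and 126 against 27, 19.4 and 29.5 CPM (log2 -2.44, SE 0.18). Groups did not overlap at any of these, as the rule for naming regions required.

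**Figure D2:**
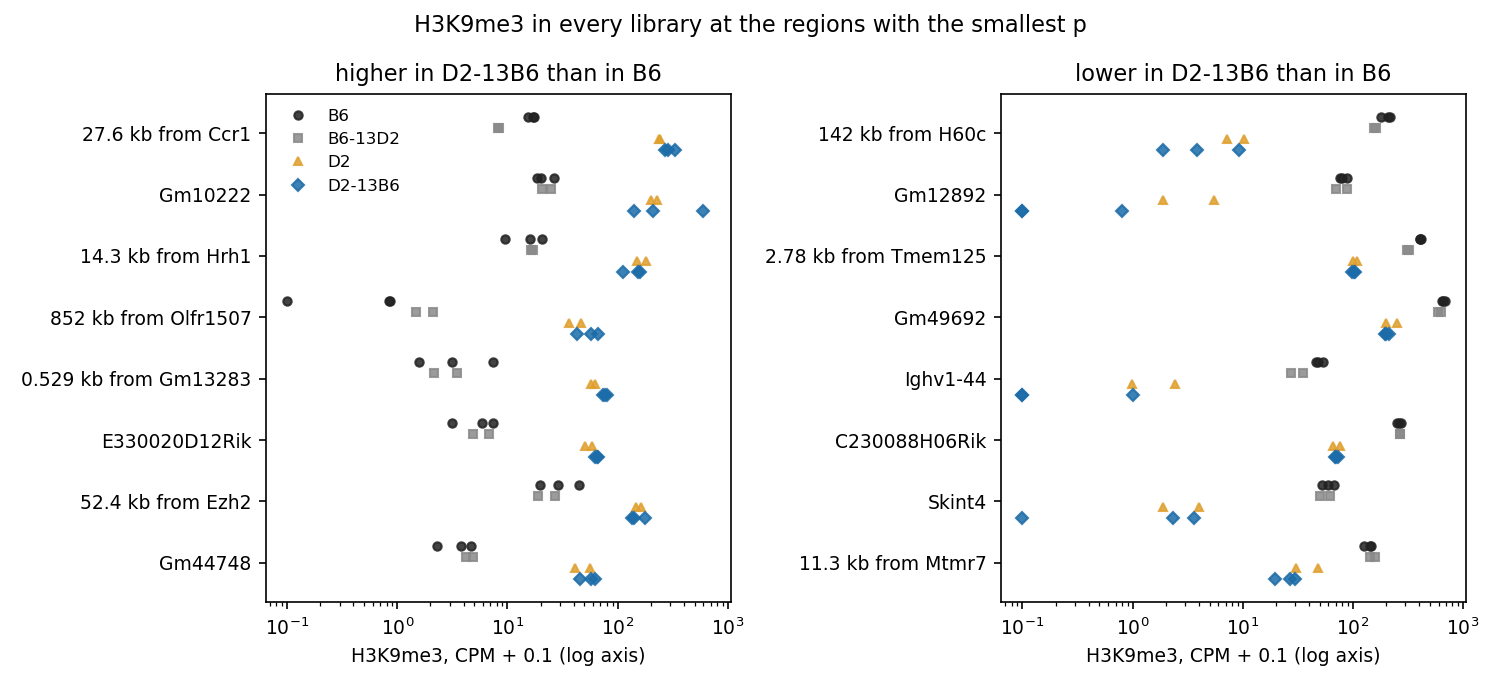
H3K9me3 in CPM plus 0.1 (log axis) in every library of the repeated series at the 8 higher (left) and 8 lower (right) regions on the autosomes other than 11 and 13 with the smallest p, labelled by gene or by distance to the nearest coding gene. Each point is 1 library. D2 (orange) lies with D2-13B6 (blue) and B6-13D2 (grey) with B6 (black) at all 16; at 27.6 kb from Ccr1, D2 had 237 and 245 CPM and B6-13D2 8.13 and 8.21.

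At protein-coding genes, H3K9me3 was higher in D2-13B6 over an exon of Pkd1l2, a polycystin family gene, at chr8:117014695-117019956, with 15.3, 19 and 14.7 CPM in B6 and 96.2, 64.2 and 75.8 in D2-13B6 (log2 2.26, SE 0.22). H3K27ac moved the other way, 66.3 and 71.9 CPM in B6 against 5.49 and 6.05 in D2-13B6 (log2 -3.56). In D2, with 57.3 and 40.3 CPM of H3K9me3, it was 63.2 and 55.1 CPM, near the B6 level. An exon of Ddx39b, an RNA helicase gene (chr17:35252574-35256145), had 6.54, 6.09 and 8.10 CPM against 38.7, 38.1 and 45.6 (log2 2.55, SE 0.28). Its H3K27ac log2 change was -0.30 with an adjusted p of 0.209. Lower regions included exonic sequence of Ppp1r12a, the regulatory subunit of myosin phosphatase, at chr10:108284390-108288336, with 93.0, 82.2 and 68.5 CPM in B6 and 7.20, 11.2 and 21.8 in D2-13B6 (log2 -2.55, SE 0.22). The start of Plekhm3 (chr1:64956161-64959984) had 68.3, 64.7 and 53.1 CPM against 13.5, 12.7 and 9.13 (log2 -2.40, SE 0.24). There H3K27ac was higher, 130 and 158 CPM in D2-13B6 against 17.8 and 18.1 in B6 (log2 3.00). The start of Bst1, an ADP-ribosyl cyclase gene (chr5:43836516-43838000), had 43.6, 44.1 and 48.6 CPM against 6.30, 5.98 and 7.73 (log2 -2.74, SE 0.28), again with more H3K27ac (log2 1.94). The 3 remaining lower regions in this set lay in zinc finger genes, Zfp979, Zfp992 and Zfp936, with log2 changes of -1.96, -1.58 and -1.95. Of their sampled words 0%, 60% and 80% occurred once in the genome.

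Higher and lower regions differed in position, repeat content and level. Within 1 kb of a coding start 11.1% of 12469 regions were higher and 3.31% lower, and over coding exons 11.3% and 5.06% of 5200. Between genes 5.23% of 33708 were higher and 17.3% lower. Where over 75% of the bases are soft-masked, 2.62% of 11439 regions were higher and 30.9% lower, and where under 25% are, 9.21% and 5.05% of 41567. Lower regions had a median of 61.1% masked bases and a median width of 648 bp, higher regions 15.2% and 1203 bp, and regions not called 17.9% and 835 bp. Of the lower regions 47.1% consisted of sampled words that each occur once in the genome, against 71.8% of the higher and 80.0% of those not called. The level moved with this too: the median log2 change went from 0.35 in the regions with the lowest average level, 1 of 4 equal groups, through 0.12 and -0.08 to -0.30 in the group with the highest. Whole libraries differed in masked sequence, with 20.6% to 21.9% of B6 counts in regions over 75% masked and 13.5% to 16.5% of D2-13B6 counts (15.7% to 17.4% in D2 and 20.6% to 21.1% in B6-13D2). In the separate lines these shares overlapped, 22.4% to 26.6% in B6 and 20.02% to 23.4% in D2. The share of counts near coding starts overlapped as well, 18.6% to 19.3% in B6 and 18.5% to 19.4% in D2-13B6. With a scaling that lets each library's factor depend on a region's level, coding starts still had 1359 higher and 317 lower regions and intergenic sequence 1755 and 4885. The reference is C57BL/6J, and how well DBA/2J reads match it in repeats was not tested.

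**Figure D3:**
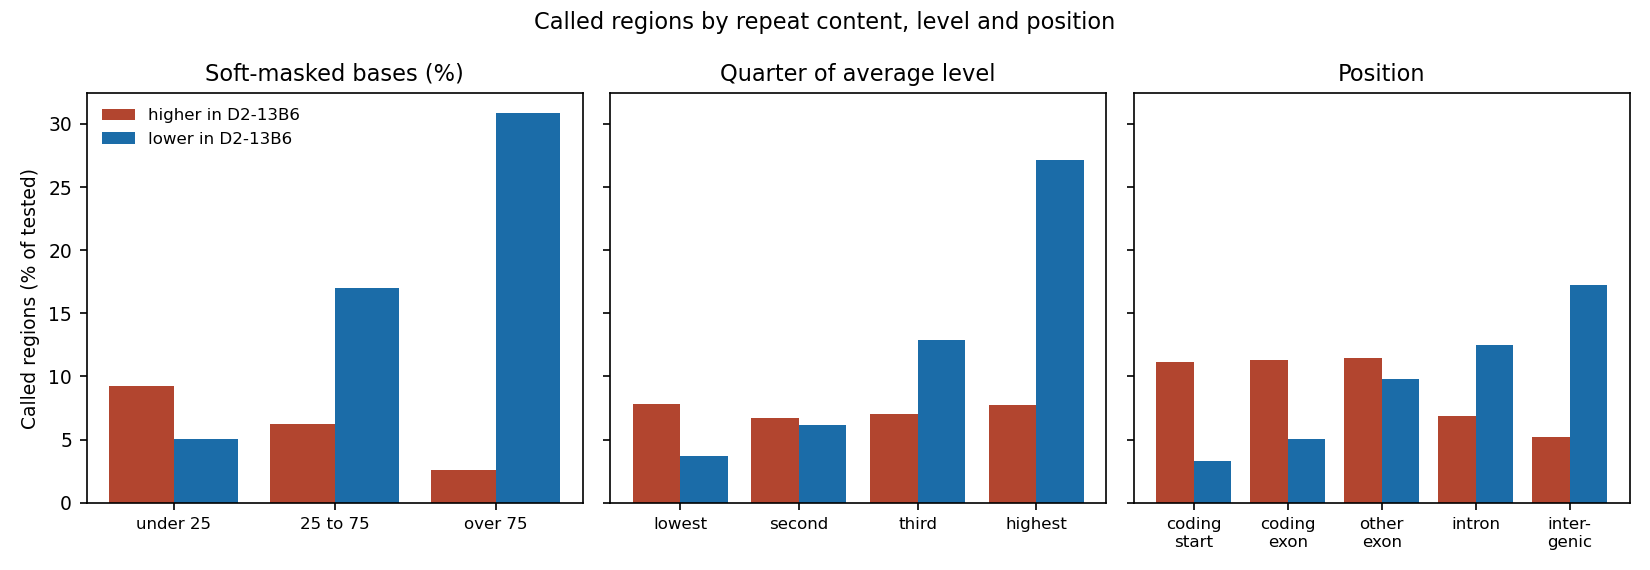
Share of tested regions (percent, bars from 0) called higher (red) or lower (blue) in D2-13B6 on the autosomes other than 11 and 13, by soft-masked bases, by 4 equal groups of average level and by position. The lower share rises from 5.05% to 30.9% with masking and from 3.70% to 27.2% with level, and the higher share is largest at exons and starts (11.1% to 11.5%).

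Several gene families lay in stretches where neighbouring regions differed together. On distal chromosome 4 at 145 to 148 Mb, which holds KRAB zinc finger genes such as Zfp600, Zfp978 and Zfp992, 244 of 403 regions were lower and 11 higher, with a median of -0.84. Summed H3K9me3 was 18500, 17300 and 19800 CPM in B6 and 8260, 10900 and 11200 in D2-13B6, with no overlap, and 8490 and 9530 in D2. H3K27ac was lower there as well, at 231 of 403 regions (13.1% of all regions tested for it were lower), with 11000 and 12000 CPM against 7850 and 8900. Regions within 5 kb of the 416 genes named Zfp numbered 1070, of which 100 were higher and 214 lower (29.3% called, against 20.9% of all regions), and 102 of the lower ones lay in this stretch. Elsewhere 98 of 912 were higher and 112 lower, a called share of 23%, near that of all regions. Outside the stretch, an exonic region at Zfp125 and 3110053B16Rik (chr12:20913603-20915721) had 65.4, 70.0 and 69.3 CPM in B6 and 8.09, 7.47 and 0 in D2-13B6, and an intronic repeat of Zfp97 (chr17:17137287-17137457) had 2.18, 0 and 0.737 CPM against 12.6, 15.7 and 16.9, at least 6.76-fold higher. In chr4:147416055-147418784, an intron of the noncoding C230088H06Rik 25.1 kb from Zfp978, levels were 261, 253 and 274 CPM against 73.8, 70.2 and 68.1.

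The Skint genes, which encode immunoglobulin-like proteins known from the selection of skin T cells, had less H3K9me3 at 23 of 25 regions near them (92% called, against 20.9% of all regions, 12.2% lower) and more at none, with a median of -3.05. Over 111 to 115 Mb of chromosome 4, the megabases that hold these genes, 48 of 82 regions were lower and 0 higher. Summed levels there were 1140, 1040 and 1080 CPM in B6 and 448, 449 and 459 in D2-13B6, with 472 and 492 in D2 and 1030 and 1070 in B6-13D2. In an intron of Skint4 (chr4:112159399-112161519) the values were 67.6, 59.3 and 52.3 CPM against 0, 2.24 and 3.51. H3K27ac was 15.9 and 20.1 CPM against 0.102 and 0.0555 there, so both marks had hardly any reads in D2-13B6. Of 463 regions on these autosomes that were lower with every D2-13B6 library at 3 counts or fewer, 189 were at that floor for H3K27ac too, and their median masked share was 71.3%. Whether the DNA is present there in DBA/2J was not tested.

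Antigen receptor V genes went mainly the other way. Of 210 regions near them 126 were higher and 24 lower (71.4% called, against 20.9% of all regions), with a median of 1.79. At the T cell receptor alpha V genes (Trav) 76 of 85 were higher and 0 lower, and over 53 to 54 Mb of chromosome 14 summed H3K9me3 was 485, 456 and 490 CPM in B6 and 2290, 2920 and 3230 in D2-13B6. D2 had 1980 and 2310 CPM and B6-13D2 479 and 519. H3K27ac was higher too, at 75 of 87 regions, against 17.2% of all regions tested for it. For H3K9me3 the separate D2 lines exceeded the separate B6 lines (706 to 749 against 410 to 451 CPM). An exon of Trav13n-3 (chr14:53336978-53337261) had 0, 0.761 and 1.47 CPM against 43.2, 54.5 and 65.3, at least 24.4-fold higher, and 40% of its sampled words occurred once. At the immunoglobulin heavy chain V genes (Ighv) 46 of 82 regions were higher and 18 lower. Ighv1-44 (chr12:114963346-114965351) was among the lower, with 53, 46.4 and 48.6 CPM in B6 and 0.899, 0 and 0 in D2-13B6, at least 21-fold. Of 37 regions at kappa V genes 2 were higher and 6 lower, and of 6 at T cell receptor beta V genes 2 were higher and 0 lower. These genes are not rearranged or expressed in stem cells.

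Several other stretches had many higher regions, and those described here were picked after their values were seen. Over all regions 8.75% were higher and 12.2% lower for H3K9me3, and 17.2% and 13.1% for H3K27ac. Stretches given by base coordinates are runs of regions called in the same direction with gaps of at most 10 kb. How many of their regions were called follows from these bounds. A cluster of interferon zeta genes at chr4:88755069-88806050 was a run of 20 regions called higher. It had 162, 105 and 93.6 CPM in B6 and 955, 853 and 824 in D2-13B6 (median log2 2.94). H3K27ac was higher at 12 of the 20 and lower at 0. The sampled words of a region at the start of Gm13276 there had a median of 12 copies, so its reads could come from any member. At 20 to 21 Mb of chromosome 8, with the defensin gene Defb33 and the repeated Gm15319, 135 of 148 regions were higher and 3 lower, and summed levels were 9590, 9150 and 8700 CPM against 17500, 20300 and 15200. H3K27ac had a median of -0.02 in that stretch. The median region there had 40% of its sampled words found once, so reads could come from other copies. On chromosome 12 at 18 to 24 Mb, 289 of 496 regions were higher and 31 lower; H3K27ac was higher at 421 of 494, but in the separate lines the H3K9me3 median was -0.05, with 49 higher and 51 lower. Around Dynlt1b, a dynein light chain gene, at 6 to 7 Mb of chromosome 17, 76 of 131 were higher and 10 lower. The median region there had 50% of its sampled words found once. H3K27ac in this megabase was higher at 110 of 129 regions and lower at 2. The stretch with Glo1, the glyoxalase gene, at 30 to 31 Mb had 38 of 76 higher and 0 lower, with 397, 388 and 382 CPM in B6 and 720, 849 and 811 in D2-13B6. H3K27ac was higher at 31 and lower at 1 of the 66 regions tested for it there. At the major histocompatibility complex (35 to 36 Mb) 39 of 98 were higher and 4 lower. Around Fcgr3, an immunoglobulin G receptor gene, a run of 18 regions called higher (chr1:171063185-171082142) had 782, 820 and 712 CPM against 2300, 1980 and 1720. A megabase of chromosome 7 (45 to 46 Mb), with Bax and Bcat2, had 33 of 95 higher and 1 lower. At Selenbp2 and Tuft1 (chr3:94658572-94731584) a run of 19 regions called higher, with 20 tested, had 115 to 122 CPM in B6 and 379 to 428 in D2-13B6. Of the 74 regions at 94 to 95 Mb of that chromosome, 38 were higher and 4 lower. Other stretches were lower. The megabase around Abcg3, a transporter gene, at 104 to 105 Mb of chromosome 5 had 39 of 82 regions lower and 2 higher. A block of predicted genes at the start of the assembled chromosome 9 (chr9:2999924-3038397) was a run of 29 regions called lower. It had 108000, 103000 and 97600 CPM in B6 and 62400, 70600 and 66900 in D2-13B6. Its median region had 40% of its sampled words found once.

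At imprinted genes, which are expressed from one parental copy, lower calls prevailed. Of 162 regions within 5 kb of the 48 listed genes 10 were higher and 35 lower (27.8% called, against 20.9% of all regions, 8.75% higher and 12.2% lower), with a median of -0.07 over all 162. The region at the shared start of Peg3 and Usp29, known as their imprinting control region (chr7:6726759-6731328), had 73.4, 70.8 and 50.8 CPM in B6 and 19.8, 15.7 and 26.7 in D2-13B6 (log2 -1.64, SE 0.21, adjusted p = 2.23e-10). All D2-13B6 libraries lay below all B6 libraries, D2 was at 16.1 and 18.6 CPM, and H3K27ac was higher, 76.2 and 85.3 CPM against 36.9 and 40.5. ZFP57, the zinc finger protein that holds H3K9me3 at imprints, binds the hexamer TGCCGC when methylated. The Peg3 and Usp29 region holds 8 matches on either strand, and the stretch with 3 of them, selected after its values were seen, is printed with the matches in capitals.
chr7:6729419-6729718: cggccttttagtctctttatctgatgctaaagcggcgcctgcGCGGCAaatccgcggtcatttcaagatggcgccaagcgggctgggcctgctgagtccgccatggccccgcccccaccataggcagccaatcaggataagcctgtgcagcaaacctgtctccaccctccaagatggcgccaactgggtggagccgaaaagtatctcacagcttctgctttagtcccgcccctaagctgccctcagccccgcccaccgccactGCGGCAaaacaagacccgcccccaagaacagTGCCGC
Of the 35 lower regions 22 hold the hexamer (62.9%), against 20.3% of all 86874 regions tested; in the central 300 bases the shares were 45.5% of 33 and 8.33% of 80387. A match is a description of the reference and does not show binding.

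Among the other imprinted regions, a region shared by Igf2r and the antisense transcript Airn fell from 50.1 ± 9.59 CPM in B6 to 17.4 ± 1.85 in D2-13B6 (SD, n = 3 libraries each; log2 -1.51, SE 0.23). Peg13 within Trappc9 went from 38.8 ± 2.14 to 11.8 ± 5.84 CPM (log2 -1.67, SE 0.26). Mest went from 63.1 ± 14 to 30.5 ± 2.49 CPM, with a log2 change of -1.05 (SE 0.20). The control region of Kcnq1ot1, a long noncoding RNA that silences neighbours in cis, went from 33.8 ± 2.63 to 14.1 ± 1.43 CPM (log2 -1.25, SE 0.25). At Gnas and Nespas, a complex locus for a G protein subunit, one region went from 33.1 ± 1.87 to 12.6 ± 4.27 CPM (log2 -1.36, SE 0.26). Most lower regions had more H3K27ac in D2-13B6: of 31 lower regions tested for it, 21 were higher and 1 lower, where 30.3% of regions were called for H3K27ac in all (17.2% higher). In the separate lines 24 of 32 were lower in D2 and 0 higher, where 17.4% of all regions were lower. Among all regions lower in the comparison on the autosomes other than 11 and 13, 44.2% were lower there. The 10 higher regions lay elsewhere in listed genes, in or at the starts of Ddc, Kcnq1, Trappc9, Airn, Commd1 and Gpr1. Of these 10, 5 (4 at Ddc and 1 at Commd1) lie on chromosome 11, where 29.7% of all regions were higher. On chromosome 17, an intron of Airn (chr17:12802094-12802850) had 5.09, 9.13 and 4.42 CPM against 13.5, 16.4 and 15.5.

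**Figure D4:**
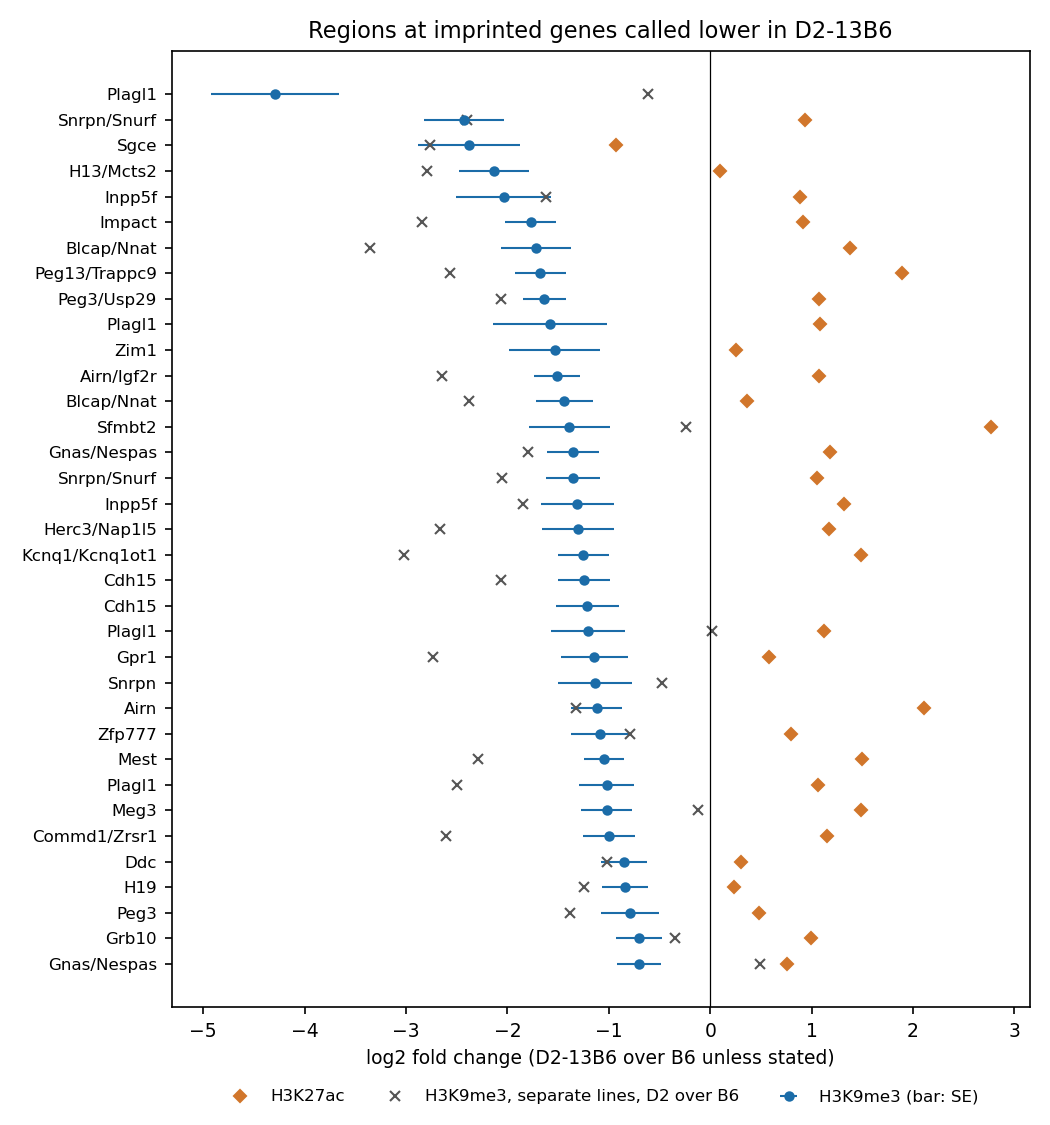
log2 fold change at the 35 regions near imprinted genes that had less H3K9me3 in D2-13B6: H3K9me3 with its standard error (blue), H3K27ac (orange) and H3K9me3 between separate D2 and B6 lines (crosses); a missing symbol means that the region was not tested there. H3K27ac lies right of 0 at all but 1 of the 31 with a value (Sgce, -0.93); the region with the lowest H3K9me3 value lies at Plagl1 (-4.29).

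Near 24 pluripotency genes, 22 of 89 regions were higher and 0 lower, with a median of 0.61 against 0.02 over all regions. The called share, 24.7%, was near the 20.9% of all regions, of which 8.75% were higher and 12.2% lower. The 11 genes concerned included Sall4, Tet1, Tet2, Tfcp2l1 and Esrrb, and levels were low throughout. At an Esrrb exon (chr12:86488498-86493786) B6 had 9.44, 9.89 and 8.84 CPM and D2-13B6 13.5, 25.4 and 27.4 (log2 1.26, SE 0.30), and an Esrrb intron (chr12:86476488-86481221) had 7.26, 9.13 and 5.89 against 14.4, 19.4 and 20.4. Both groups stayed apart, with D2-13B6 replicate 1 the lowest of its line. H3K27ac near these genes was higher at 27 and lower at 13 of 88 regions, where 17.2% of all regions tested for it were higher and 13.1% lower. Of 85 regions near genes for heterochromatin factors 8 were higher and 16 lower (28.2% called, against 20.9% of all regions, 8.75% higher and 12.2% lower). Lower ones were an exon of Atf7ip2 (31.2, 19 and 22.8 against 8.09, 7.47 and 11.2 CPM) and an intron of Smarcad1, a chromatin remodeller gene (21.1, 15.2 and 21.4 against 0.899, 5.23 and 7.73 CPM). At the shared starts of Trim28, Chmp2a and Ube2m (chr7:13030796-13036546) the libraries overlapped, with 13.1, 9.89 and 11.8 CPM in B6 and 8.99, 28.4 and 29.5 in D2-13B6 (log2 0.98, SE 0.29, adjusted p = 0.00751). Of 98 regions near germline genes 8 were higher and 6 lower (14.3% called, below the 20.9% of all regions). Among them were the start of Hormad2, a meiotic chromosome protein gene on chromosome 11, where 29.7% of all regions were higher (log2 1.26, SE 0.32), and of Tuba3a, a testis tubulin gene (log2 -1.88, SE 0.33).

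Within 5 kb of genes for chemical senses lower calls outnumbered higher ones. Of 396 regions near olfactory receptor genes 12 were higher and 92 lower (26.3% called, against 20.9% of all regions), with a median of -0.44. For regions that overlap the genes themselves the excess was small, 9 higher and 15 lower of 109 with a median of -0.11. Of 272 near vomeronasal receptor genes 6 were higher and 78 lower (30.9% called, median -0.52), and of 110 that overlap them 2 were higher and 25 lower (median -0.35). Of the 272, 18 lie in the zinc finger stretch at 145 to 148 Mb of chromosome 4, with 14 lower and 0 higher, among them the 2 lower regions of this list with the smallest p. Elsewhere 6 of 254 were higher and 64 lower (27.6% called, median -0.46). These regions were rich in repeats, with a median of 75.6% masked bases in the lower olfactory and 66.6% in the lower vomeronasal regions. Near Olfr205, chr16:59335613-59336335 had 33.4, 30.4 and 25.1 CPM in B6 and 4.50, 2.24 and 6.32 in D2-13B6 (log2 -2.73, SE 0.33). A region 4.71 kb from Olfr1338 (chr4:118745712-118747262) had 50.1, 37.3 and 46.4 against 9.89, 12 and 15.5 CPM, with H3K27ac going from 4.96 and 5.26 to 46.5 and 58.9. Clustered protocadherins, neuronal adhesion genes, had few calls, 3 higher and 6 lower of 102 (8.82% called, against 20.9% of all regions). The lists count regions, several of which can lie near 1 gene or be shared by neighbours.

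Libraries outside the comparison gave the same direction at most regions called in both. In the separate lines, 3 B6 and 3 D2 lines labelled biological replicates, D2 and B6 differed at 34.7% of 44797 regions (17.3% higher in D2 and 17.4% lower). Of the higher regions of the comparison on the other autosomes, 2057 were tested there, with 1267 higher in D2 and 33 lower. Of the lower, 8181 were tested, with 3616 lower and 204 higher. On these autosomes 35668 regions were tested in both, and 5120 were called in both. That is 50.01% of the 10238 calls of the comparison among the regions tested in both and 42.2% of the 12144 calls of the separate lines there, and 95.4% of the 5120 had the same direction. One separate B6 line is B6 5-1 itself, in another library; without it 4963 instead of 4883 regions were called the same way. D2 against B6-13D2, the lines with the DBA/2J segment, shares no library with the comparison but was tested in the same fit. It was called at 8.22% of regions (2.86% higher and 5.37% lower). On the other autosomes 4407 were called in both, 29.9% of all 14763 calls of the comparison there and 71.8% of the 6136 others, with the same direction at 99.8%.

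**Figure D5:**
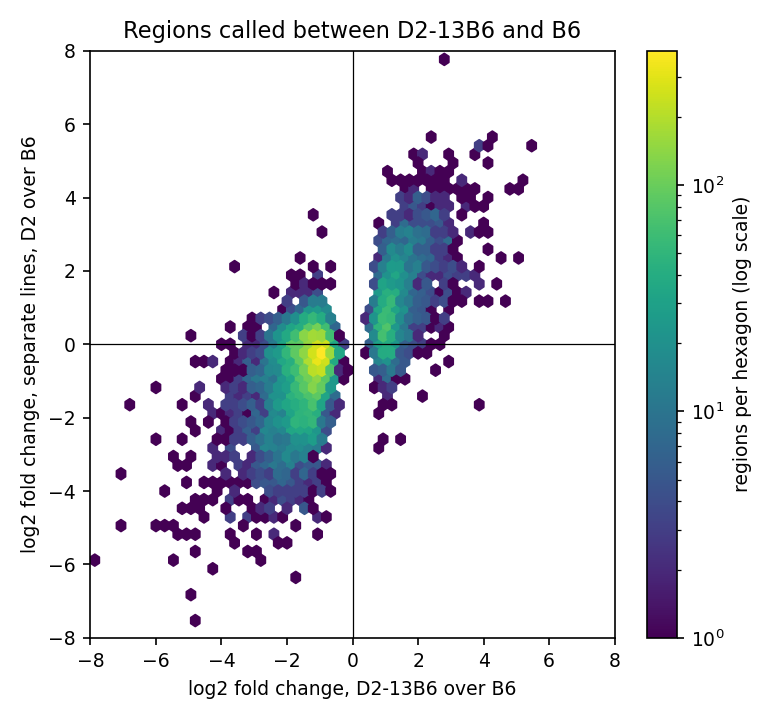
log2 fold change in the separate lines (D2 over B6, vertical) against that of D2-13B6 over B6 (horizontal) at the regions called between D2-13B6 and B6 on the autosomes other than 11 and 13; shade gives the number of regions per hexagon on a log scale. Most regions lie in the lower left and upper right, where 3616 and 1267 were called in both; medians in the separate lines were -0.50 for the lower and 1.13 for the higher regions.

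Whether the background difference was the same with either segment was tested as the difference of the 2 background contrasts. It was called at 338 of 86874 regions (0.389%), 64 positive and 274 negative. On the other autosomes 228 were called, 16 positive and 212 negative, and on chromosome 13 48, 32 of them positive. At 68 to 69 Mb of chromosome 13 it was positive at 31 of 44 regions. At chr13:68076092-68076692 there, H3K9me3 was 5.81, 4.56 and 4.42 CPM in B6, 26.1, 39.6 and 34.4 in D2-13B6, 41.2 and 38.8 in D2 and 52.7 and 71.1 in B6-13D2. The start of Usp36, a ubiquitin-specific protease gene on chromosome 11, had 26.1, 35.9 and 30.2 CPM in D2-13B6 and at most 13.7 in any library of the other lines. An intron of Tmem132c (chr5:127277436-127278513) had 2.70, 2.99 and 2.11 CPM in D2-13B6 but 23.2 to 34.2 in the libraries of the other 3 lines. The count is sensitive to single libraries: it was 172 to 204 without B6 replicate 1, 2 or 3 or D2-13B6 replicate 2 or 3, and 494 without D2-13B6 replicate 1. DESeq2 called fewer, and so did a fit of the other autosomes alone, as given in the last section.

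H3K27ac, an active mark, was compared between the same lines on the same regions, with library pairs that differed by less than sampling noise counted as 1, leaving 2 values per line. As for H3K9me3, D2-13B6 replicate 1 stood apart from replicates 2 and 3 (chi-square per degree of freedom 2.81 and 2.79, at most 1.03 for any other H3K27ac pair within a line), and the 2 values of this line are that library and the sum of the others. H3K27ac differed at 58220 of 192158 regions (30.3%), 17.2% higher in D2-13B6 and 13.1% lower. Where H3K9me3 was lower in D2-13B6, H3K27ac was higher at 38.0% and lower at 20.3% of 8314 regions. Where H3K9me3 was higher, the shares were 30.97% and 18.8% of 5324, and where it was not called 22.1% and 12.6% of 53594. At the extremes the marks moved together: of 194 regions with an H3K9me3 log2 change under -3, 63.9% were lower for H3K27ac, and of 170 above 3, 70.6% were higher. Between -3 and -2, 40.6% of 943 were higher and 29.2% lower. Without D2-13B6 replicate 1, a fit chosen after seeing the data in which the lone D2-13B6 value is assumed to vary like the other lines, 66208 of 226901 regions were called (17.5% higher, 11.7% lower), and 52378 of the 58220 calls kept their call and direction. In that fit H3K27ac was higher at 38.6% and lower at 17.8% of the regions with lower H3K9me3, and under -3 the lower share was 54.2% of 238. The comparison between bins was not tested.

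One stretch had less H3K9me3 and far more H3K27ac in the D2-13B6 libraries than in those of the other lines. It lies at chr3:6297212-6307983, 10.8 kb without an annotated gene, where the median region is masked along 100% of its bases. The stretch was drawn as a run of 13 regions called lower for H3K9me3 (median log2 change -1.86), so that all were lower follows from its bounds. Summed levels were 179, 189 and 184 CPM in B6, 69.3, 47.1 and 39.3 in D2-13B6, 146 and 143 in D2 and 177 and 182 in B6-13D2. H3K27ac was 7.72 and 6.83 CPM in B6, 15.6 and 16.4 in D2, 1.91 and 1.29 in B6-13D2 and 156 and 151 in D2-13B6. It was higher at 13 of 13 regions, against 17.2% of all regions tested for it. In the separate lines B6 (87.2 to 108 CPM of H3K9me3) and D2 (81.4 to 115) overlapped. The difference of the background contrasts was called at 1 of the 13 regions.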

How the data were processed

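H3K9me3 was measured by ChIP-seq of MNase-fragmented chromatin in mouse embryonic stem cell lines. The deposited values were raw counts of reads per listed region with duplicates removed, per the file headers, on GRCm38 (mm10), per the submitters' processing notes, which name Trimmomatic 0.39, HISAT2 2.2.1, MACS 1.4.2, bedtools 2.9.2 and edgeR. How the authors chose the regions is not given in the sources used here. Further deposited tables were used: H3K27ac counts of the same lines, and H3K9me3 counts of separate lines. In the H3K9me3 file 2 count columns matched no sample and were not used. Chromosomes 11, 13, X and Y were counted apart. The members and gene lists were chosen with earlier results of these data known.

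Regions were kept by edgeR's filterByExpr and tested with edgeR 4.0.16 (R 4.3.3; TMM factors, quasi-likelihood test, Benjamini-Hochberg over all regions tested, threshold 0.05) in 1 fit over the 10 H3K9me3 libraries made together. Log2 fold changes are D2-13B6 over B6. CPM are counts in tested regions scaled to library size with TMM factors. H3K27ac library pairs that differed by less than sampling noise were summed and counted as 1. Genes are from GENCODE M21 and sequence from RefSeq GRCm38.p6. Repeat copies were judged from 10 sampled words of 75 bases per region.

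Named regions had the smallest p. On the autosomes other than 11 and 13, 8 were taken in each direction, with 6 more at protein-coding genes (1 per gene), then 3 in each direction on each of chromosomes 11 and 13 and 2 on X; all of these had an absolute log2 change of at least 1, no overlap between the lines' libraries and 1 region per megabase. For the difference of the background contrasts off chromosome 13, 3 were taken in each direction, 1 per megabase. For each gene list up to 2 called regions in each direction within 5 kb of a member were taken, with no further condition. Stretches of neighbouring regions were picked after their values were seen. The 10 lists were imprinted, pluripotency, germline, heterochromatin factor, zinc finger, olfactory receptor, vomeronasal receptor, antigen receptor V, clustered protocadherin and Skint genes.

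Alternatives were library totals and RLE factors, a stricter and no filter, DESeq2 1.42.0, a fit of the 6 libraries alone, a replicate block, gene-body overlap, leaving out each replicate and leaving out chromosomes 11, 13, X and Y. Level-dependent scaling and leaving out regions at coding starts, and for H3K27ac leaving out D2-13B6 replicate 1, were added after seeing the data. On simulated counts for the 86874 regions the test recovered 11 of 100 regions changed 2-fold and 73 of 100 changed 4-fold, with 3 false calls. The simulation changed far fewer regions than were called in the comparison, so these shares do not give its power.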

Additional observations from a re-analysis of the deposited data

Results flagged for a closer look

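The difference of the background contrasts, D2-13B6 over B6 minus D2 over B6-13D2, was called at 338 regions, 31 of them at 68 to 69 Mb of chromosome 13. At chr13:68076092-68076692 the difference was 3.38 on the log2 scale. At chr13:69881662-69883616 it was -3.61, with 66.1, 54 and 66.3 CPM in B6 and at most 10.7 in every library of the other 3 lines. The start of Usp36 had 2.87 and the shared start of Gtf2e1 and Rabl3 3.19; at the latter B6-13D2 had 27.4 and 25.1 CPM and no library of the other lines more than 13.3. The pseudogene Gm48016 at chr12:22558763-22559094 had 3.30, with 2.91 to 3.04 CPM in B6 and 9.85 to 21.1 in the libraries of the other lines. The intron of Tmem132c had -3.16 and chr11:121965998-121966237 -2.60. Near the boundary of the sequence shared by X and Y, an intron of Mid1 had -1.47 and an intron of Gm47283 on Y -1.40; there 70% of sampled words occurred once.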

How the results depend on the processing

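Each named region of the first 3 rules that could be tested kept its direction and its call in every alternative (44 regions, 40 with a mean of at least 20 counts, 28 without chromosomes 11, 13, X and Y, 35 without regions at coding starts), and the medians of chromosomes 11 and 13 kept their sign. These regions were chosen for small p and no overlap in the same libraries, so keeping their call was largely set by the choice. It does not describe calls at large. With level-dependent scaling 3910 of the 5471 higher and 6952 of the 9292 lower calls on the other autosomes remained. The excess of lower calls on the other autosomes was lost with library totals (7546 higher, 7463 lower) and was small with a mean of at least 20 counts (50.6% of calls lower). With library totals the median log2 change was 0.82 on chromosome 11 and -0.21 on 13. Requiring a mean of 20 counts, which leaves 11849 regions, gave 4452 calls, 1820 higher and 1867 lower on the other autosomes, 465 on chromosome 11 (median 0.53), 233 on 13 (median -0.26) and 214 for the difference of contrasts. Without a filter the chromosome 13 median was -0.21 and the difference of contrasts had 186 calls, and without chromosomes 11, 13, X and Y it had 137. DESeq2 called 6540 regions, 1610 higher and 3857 lower on the other autosomes, 625 on chromosome 11, 357 on 13 and 83 for the difference of contrasts. Gene-body overlap in place of 5 kb left 24 calls at olfactory receptor (9 higher and 15 lower), 27 at vomeronasal receptor and 49 at antigen receptor V genes. The causes of these differences were not tested. Under the stricter filter fewer regions were tested and the scaling factors were computed anew.

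Leaving out each replicate gave 12043 to 21122 calls in all, 3493 to 7413 higher and 6304 to 9912 lower on the other autosomes, 1400 to 2552 on chromosome 11 (median 0.65 to 0.72), 560 to 942 on 13 (median -0.36 to -0.26) and 172 to 494 for the difference of contrasts. B6 replicate 1 and D2-13B6 replicate 3 lowered the chromosome 13 count most (577 and 560), and B6 replicate 1 and D2-13B6 replicates 2 and 3 that of chromosome 11 (1472, 1400 and 1429). Same-numbered libraries correlated in their deviations at 0.06, 0.0049 and 0.03, so the numbers do not pair them; with the replicate block 18055 regions were called, 5344 higher and 9311 lower on the other autosomes, and 2245, 876 and 366 on chromosome 11, on 13 and for the difference of contrasts. With the 6 libraries of the 2 lines alone, 53569 regions were tested, and 4807 were higher and 6473 lower on the other autosomes. The difference of contrasts could not be fitted with these 6 libraries. Which calls depth limits was not tested.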
